A study of Mus musculus with 15 samples.

Results

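The complement system is a set of blood and tissue proteins that mark microbes, damaged cells and immune complexes for removal, and 9 genes of it were followed here in RNA of the mouse colon: C1ra, C1s1, C4b, C2, C3, Cfb, Cfi, Cd55 and Serping1. They were taken by symbol from a deposited table of 22063 genes. Each symbol had 1 row, and all 9 were among the 12917 genes that passed the filter on low values. The choice was made with earlier results of these data known.

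The samples come from a study of a herbal formula, Wumei Wan, in mice with colorectal cancer. Each of 3 groups had 5 libraries from the colon of C57BL/6 mice labelled wild type. The WMW-H group is described as the treated group of the model, and its treatment label reads WMW-H only. The AOM/DSS group is the model itself, in which azoxymethane, a carcinogen, is combined with dextran sulfate sodium, which injures the colon lining. The Control group is the blank control. The labels give no dose, age, sex or time of collection. The labels name colon epithelial cells as the cell type but describe no step that isolates them. They do not say that the libraries of a group came from separate animals, so every p-value below measures only the spread between these libraries, which may be technical.

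Complement can be started by antibody on a surface (the classical pathway), by sugars (the lectin pathway) or by slow spontaneous turnover of C3 (the alternative pathway). In the classical pathway the proteases C1r and C1s cut C4 and C2, whose fragments form an enzyme that cuts C3. In the alternative pathway factor B joins a fragment of C3 to make a like enzyme. Regulators limit each step: the C1 inhibitor blocks C1r and C1s, CD55 speeds the decay of the C3-cutting enzymes, and factor I cuts their C3 and C4 fragments. The liver makes most of the proteins in plasma, and epithelial cells, fibroblasts and macrophages also make some of them locally.

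Values are FPKM, fragments per kilobase of transcript scaled to the mapped fragments of the library, so levels of different genes can be set side by side. Differences are in log2(FPKM + 1), which understates the change of low genes. They come from a single limma fit over all libraries, two-sided, and a gene rose or fell where the p-value, adjusted by Benjamini-Hochberg over all genes tested, was under 0.05. Depth read from the low values was 16200000 to 21000000 fragments per library. In these bulk samples, a change in the number of cells that make a transcript cannot be told apart from a change of RNA per cell. Many genes differed between the groups: 66.1% of all genes tested were called in AOM/DSS against Control, 66.8% in WMW-H against AOM/DSS and 59.5% in WMW-H against Control. Of all genes tested, 45.5% were higher and 20.6% lower in the first comparison, 25.9% higher and 40.9% lower in the next, and 35.4% higher and 24.1% lower in the last. The median change of all genes was 0.12, -0.07 and 0.05 in the same order.

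Against that background, 6 of the 9 genes rose in AOM/DSS against Control and 0 fell. With WMW-H set against AOM/DSS, 6 genes were called higher and 3 lower; with WMW-H set against Control, 7 were higher and 2 lower. C1ra, C1s1, C4b, C3 and Serping1 were higher in AOM/DSS than in Control and higher again in WMW-H. Cfi rose most in AOM/DSS and was lower in WMW-H. Its rises against Control, which enter both counts, were partly fixed by the filter, which it passed through AOM/DSS and WMW-H libraries alone. Cd55 was higher in WMW-H than in both other groups, while C2 and Cfb were lower in WMW-H than in both. The median change over the 9 genes was 0.57, 0.14 and 0.71 in the 3 comparisons. Called genes in either direction were 6, 9 and 9 of 9, so the first share lies near that of all genes tested.

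**Figure D1:**
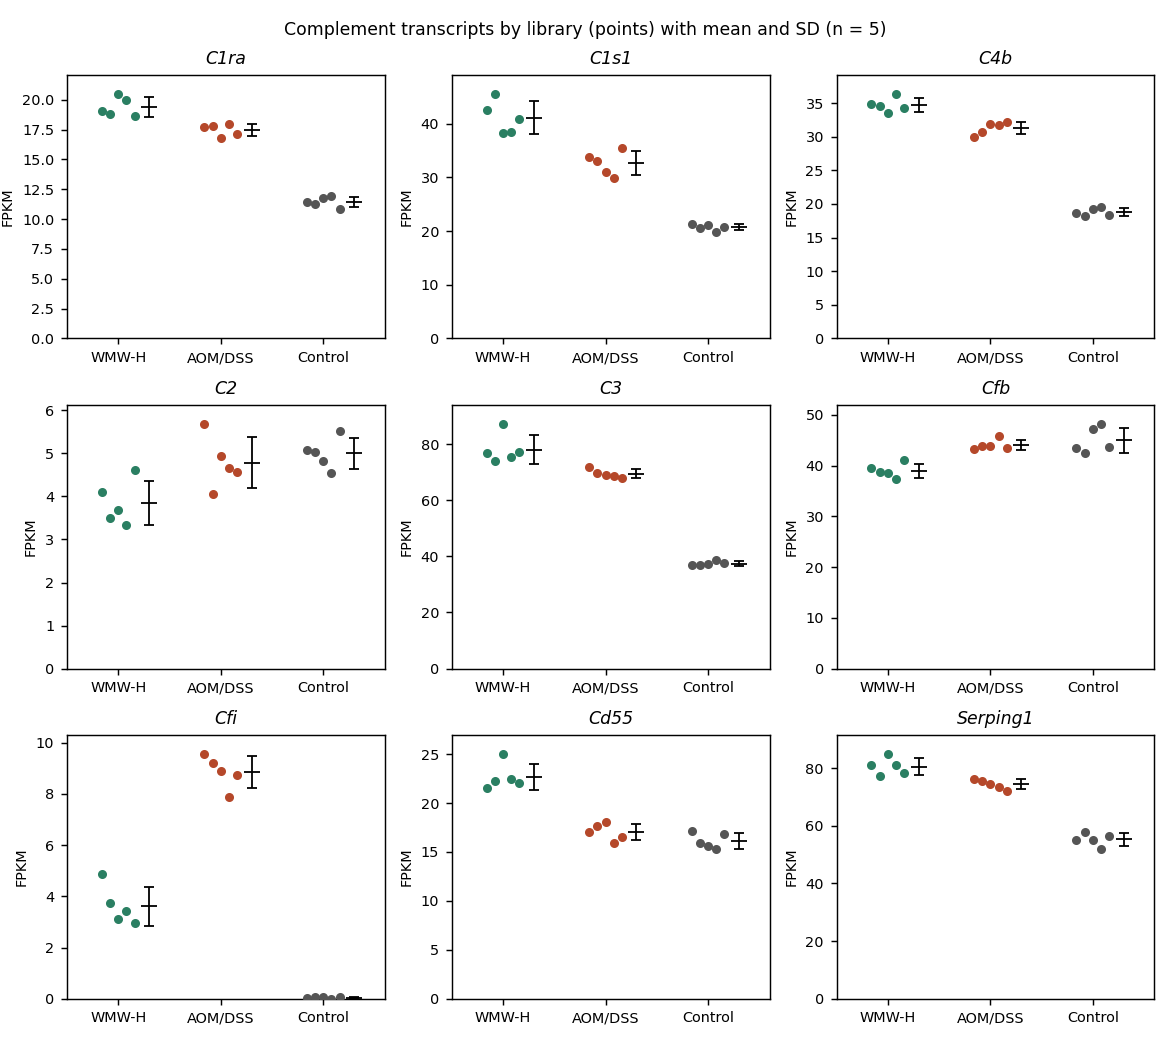
FPKM (vertical axes, from 0) of the 9 complement genes in each library, with groups from left to right WMW-H, AOM/DSS and Control; points are libraries, and the bar beside them is the mean with its SD (n = 5). C1ra, C1s1, C4b, C3 and Serping1 step down from left to right without overlap, Cfi is highest in AOM/DSS and near 0 in Control, and Cfb and C2 are lowest in WMW-H.

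Serping1 had the highest mean of the 9 transcripts in each group. The lowest mean was that of Cfi in WMW-H, C2 in AOM/DSS and Cfi in Control. C3 came next in WMW-H and AOM/DSS, whereas in Control Cfb lay between them, at 42.6 to 48.2 FPKM against 36.8 to 38.7 FPKM for C3. Some neighbours in this order overlapped between libraries: Serping1 and C3, C1s1 and Cfb, and C2 and Cfi in WMW-H, and Serping1 and C3, C1s1 and C4b, and C1ra and Cd55 in AOM/DSS. In Control, no neighbouring pair overlapped.

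C1ra and C1s1 encode the protease pair that opens the classical pathway, and the genes are neighbours on chromosome 6. C1ra (ENSMUSG00000055172) was at 19.1, 18.8, 20.5, 20.0 and 18.6 FPKM in WMW-H, 17.7, 17.8, 16.8, 17.9 and 17.1 FPKM in AOM/DSS, and 11.4, 11.3, 11.8, 11.9 and 10.8 FPKM in Control. No library of one group reached the values of another. C1ra rose by 0.57 in AOM/DSS against Control (SE 0.04, limma adjusted p = 4.79e-10), or 1.53-fold between the means. Its rise in WMW-H against AOM/DSS was 0.14 (SE 0.04, adjusted p = 0.00291), or 1.11-fold, and that against Control was 0.71 (adjusted p = 5.19e-11).

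C1s1 (ENSMUSG00000038521) was at 42.5, 45.6, 38.2, 38.5 and 41.0 FPKM in WMW-H, 33.9, 33.1, 31.0, 29.9 and 35.4 FPKM in AOM/DSS, and 21.3, 20.5, 21.1, 19.8 and 20.9 FPKM in Control. The groups again did not overlap. C1s1 rose by 0.63 in AOM/DSS against Control (SE 0.05, limma adjusted p = 7.48e-09). In WMW-H it rose by 0.33 against AOM/DSS (SE 0.05, adjusted p = 2.43e-05) and by 0.95 against Control (adjusted p = 5.92e-11), which put its mean at 1.99 times that of Control. Within libraries, the ratio of C1s1 to C1ra was 2.13 ± 0.231 in WMW-H, 1.87 ± 0.144 in AOM/DSS and 1.81 ± 0.098 in Control (SD, n = 5), with overlapping ranges.

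Both proteases have near copies in the mouse genome. Of all stretches of 50 bases in the C1ra transcript, 48% also occur in C1rb, and 24.3% of those in C1s1 occur in C1s2, so fragments could have been split between copies. C1rb (ENSMUSG00000098470) was at no more than 0.033 FPKM in any WMW-H library, at 2.24, 2.55, 1.99, 3.06 and 3.38 FPKM in AOM/DSS, and at no more than 0.03 FPKM in any Control library. It passed the filter through the 5 AOM/DSS libraries alone. C1s2 was at 0.0438 ± 0.0466 FPKM in WMW-H, 0.312 ± 0.0617 in AOM/DSS and 0.0112 ± 0.0163 in Control (SD, n = 5). The part of shared fragments in the C1ra and C1s1 values was not tested. Transcripts of the seminal vesicle and other male accessory glands were high in the same group: 8 marker genes summed to 0 to 4.31 FPKM in WMW-H, 2620 to 2764 FPKM in AOM/DSS and 0 to 3.65 FPKM in Control. Another gene of that list, Spink1, set apart with its values already seen, was at 57.6 ± 6.47 FPKM in WMW-H, 76.7 ± 8.25 in AOM/DSS and 34.4 ± 4.77 in Control. Their part in the C1rb result was not tested.

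C4b and C2 supply the parts of the enzyme that cuts C3 in the classical and lectin pathways. C4b (ENSMUSG00000073418) was at 34.8, 34.5, 33.6, 36.3 and 34.3 FPKM in WMW-H, 30.0, 30.7, 31.9, 31.7 and 32.1 FPKM in AOM/DSS, and 18.7, 18.2, 19.2, 19.5 and 18.3 FPKM in Control. All 3 groups were separate. C4b rose by 0.71 in AOM/DSS against Control (SE 0.03, limma adjusted p = 2.14e-12), by 0.15 in WMW-H against AOM/DSS (SE 0.03, adjusted p = 0.000548) and by 0.85 in WMW-H against Control (adjusted p = 4.37e-13). C4a, the other C4 gene of the mouse, had no row under that symbol among the deposited values. It was not analysed here, so any sharing of fragments between C4b and C4a is uncertain.

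C2 (ENSMUSG00000024371) was at 4.10, 3.51, 3.68, 3.34 and 4.62 FPKM in WMW-H, 5.68, 4.06, 4.94, 4.66 and 4.58 FPKM in AOM/DSS, and 5.09, 5.04, 4.83, 4.55 and 5.52 FPKM in Control. It was the most scattered of the 9 in AOM/DSS, with a coefficient of variation of 12.4%, and its groups overlapped in all 3 comparisons. In AOM/DSS against Control the change was -0.06 (SE 0.08, limma adjusted p = 0.539), and it passed at -0.21 after quantile normalization (adjusted p = 0.0303). In WMW-H it fell by 0.25 against AOM/DSS (SE 0.08, adjusted p = 0.00986; 0.0544 after quantile normalization) and by 0.31 against Control (adjusted p = 0.00288). C2 fell in both WMW-H comparisons, in which C4b rose. The ratio of C4b to C2 was 9.16 ± 1.31 in WMW-H, 6.62 ± 0.85 in AOM/DSS and 3.77 ± 0.368 in Control, and its ranges in WMW-H and AOM/DSS overlapped. Its exons overlap Zbtb12 on the other strand, at 2.73 ± 0.516 FPKM in WMW-H, 3.28 ± 0.361 in AOM/DSS and 1.79 ± 0.244 in Control. No label says whether strand was used in counting, and without it fragments of the pair cannot be told apart. The exons of C2 also overlap Gm20547, a model that spans C2 and Cfb and was listed at 0 in 14 of 15 libraries. Exons of C1s1 and Cd55 likewise overlap, on the other strand, the models Gm16567 and Gm16083, whose part in their values was not tested.

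C3, on which all the pathways converge, and Cfb, the protease of the alternative pathway enzyme, also parted in the WMW-H comparisons. C3 (ENSMUSG00000024164) was at 76.9, 73.9, 87.1, 75.3 and 77.0 FPKM in WMW-H, 72.0, 69.6, 68.8, 68.6 and 67.9 FPKM in AOM/DSS, and 36.8, 36.9, 37.1, 38.7 and 37.5 FPKM in Control. Replicate 3 of WMW-H was highest, and no groups overlapped. C3 rose by 0.87 in AOM/DSS against Control (SE 0.04, limma adjusted p = 1.09e-12), or 1.85-fold. In WMW-H it rose by 0.17 against AOM/DSS (SE 0.04, adjusted p = 0.000752) and by 1.04 against Control (adjusted p = 2.73e-13), or 2.09-fold.

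Cfb (ENSMUSG00000090231), the neighbour of C2 on chromosome 17, was at 39.5, 38.8, 38.6, 37.3 and 41.1 FPKM in WMW-H, 43.4, 44.0, 43.9, 45.8 and 43.4 FPKM in AOM/DSS, and 43.5, 42.6, 47.1, 48.2 and 43.7 FPKM in Control. WMW-H lay below both other groups, which overlapped each other. The change in AOM/DSS against Control was -0.03 (SE 0.04, limma adjusted p = 0.51). That value depended on scaling: it was 0.02 (adjusted p = 0.637) with equal library totals, -0.15 (adjusted p = 0.00196) with median-of-ratios size factors and -0.14 (adjusted p = 0.00295) after quantile normalization. In WMW-H, Cfb fell by 0.17 against AOM/DSS (SE 0.04, adjusted p = 0.000488) and by 0.20 against Control (adjusted p = 0.000152). The ratio of C3 to Cfb, which no single scaling factor for a library can alter, was 2.0003 ± 0.152 in WMW-H, 1.57 ± 0.0586 in AOM/DSS and 0.833 ± 0.0351 in Control, with no overlap of the groups. C2 and Cfb kept closer proportions, with a ratio of 0.0983 ± 0.00975 in WMW-H, 0.109 ± 0.0144 in AOM/DSS and 0.112 ± 0.013 in Control, and overlapping ranges.

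**Figure D2:**
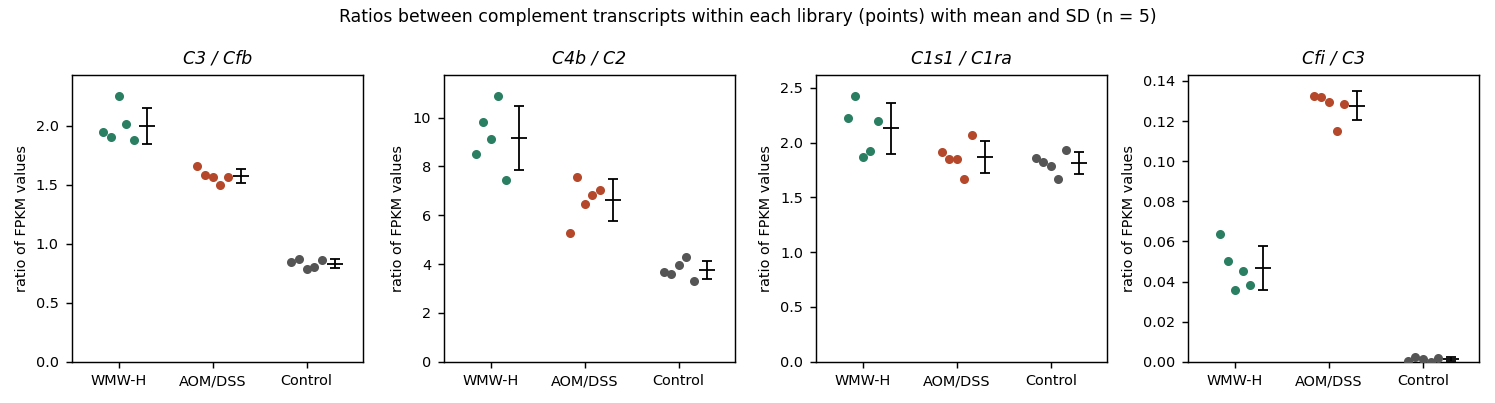
Ratios of FPKM values within each library (vertical axes, from 0) for C3 over Cfb, C4b over C2, C1s1 over C1ra and Cfi over C3, with groups from left to right WMW-H, AOM/DSS and Control; points are libraries, and the bar is the mean with its SD (n = 5). C3 over Cfb runs from 1.88 to 2.25 in WMW-H, from 1.496 to 1.66 in AOM/DSS and from 0.788 to 0.867 in Control, while C1s1 over C1ra overlaps between all groups.

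RefSeq promoter windows, of 250 bases before and 50 after the annotated start, were available for C1ra, C1s1, C3 and Cd55, 4 of the 9 genes. Those of the 3 genes that rose in AOM/DSS and again in WMW-H are shown for the short motifs that they hold. The windows lie in build GRCm38.p6 at chr17:57228087-57228386 on the minus strand for C3, chr6:124512371-124512670 on the plus strand for C1ra and chr6:124542310-124542609 on the minus strand for C1s1, and are written 5′ to 3′ on the strand of the gene. Capitals mark matches, on either strand, to TTGCNNAA (a C/EBP core), TTCNNNGAA (a STAT site of the GAS type), GAAANNGAAA (an interferon-stimulated response element), the NF-kB consensus or TATAAA.
C3: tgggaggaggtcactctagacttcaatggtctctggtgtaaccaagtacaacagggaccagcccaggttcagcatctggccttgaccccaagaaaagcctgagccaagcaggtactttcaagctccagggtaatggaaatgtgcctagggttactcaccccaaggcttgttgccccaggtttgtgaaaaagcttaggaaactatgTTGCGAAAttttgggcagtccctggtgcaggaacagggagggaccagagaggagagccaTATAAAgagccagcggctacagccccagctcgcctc
C1ra: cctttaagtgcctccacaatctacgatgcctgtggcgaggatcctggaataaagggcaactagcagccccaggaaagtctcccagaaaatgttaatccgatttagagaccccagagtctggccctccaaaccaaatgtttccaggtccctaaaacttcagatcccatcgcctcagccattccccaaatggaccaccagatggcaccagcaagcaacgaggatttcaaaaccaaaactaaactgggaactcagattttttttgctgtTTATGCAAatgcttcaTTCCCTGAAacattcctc
C1s1: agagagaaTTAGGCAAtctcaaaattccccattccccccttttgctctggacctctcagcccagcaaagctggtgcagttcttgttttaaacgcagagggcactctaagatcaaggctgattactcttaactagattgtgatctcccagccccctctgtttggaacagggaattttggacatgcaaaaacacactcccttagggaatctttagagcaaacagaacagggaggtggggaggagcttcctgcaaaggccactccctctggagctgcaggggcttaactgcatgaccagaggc
RefSeq gives 2 windows for C1s1; the first listed is shown, and the other, 38 bases further downstream, held no match to any of the 5 motifs. Each of the 3 windows shown held the C/EBP core: 45 to 38 bases before the annotated start in C3, 17 to 24 bases after it in C1ra and 242 to 235 bases before it in C1s1. C1ra also held the STAT letters, 33 to 41 bases after the start, and C3 held TATAAA 15 to 20 bases after it. No match to the other motifs lay in these 3 windows, and none to any of the 5 lay in that of Cd55. Among all 32851 windows of this length in the table, 10.8% held the C/EBP core, 8.3% the STAT letters, 3.44% the interferon-stimulated response element, 8.46% the NF-kB consensus and 13.6% TATAAA. A match is only a run of letters, and binding was not measured.

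Among regulators, Serping1 encodes the C1 inhibitor, the main brake on C1r and C1s. Serping1 (ENSMUSG00000023224) was at 81.1, 77.1, 84.7, 81.2 and 78.3 FPKM in WMW-H, 76.4, 75.5, 74.6, 73.6 and 71.9 FPKM in AOM/DSS, and 55.1, 57.8, 55.0, 51.9 and 56.6 FPKM in Control. The groups did not overlap. It rose by 0.42 in AOM/DSS against Control (SE 0.03, limma adjusted p = 3.15e-09), and by 0.53 in WMW-H against Control (adjusted p = 2.77e-10). Its rise of 0.11 in WMW-H against AOM/DSS (SE 0.03, adjusted p = 0.00525) was lost with equal library totals (0.06, adjusted p = 0.0998) and with equal totals set without pancreas and gland genes (0.06, adjusted p = 0.0788). Serping1 rose less than its target C1s1, and their ratio was 1.97 ± 0.202 in WMW-H, 2.29 ± 0.168 in AOM/DSS and 2.67 ± 0.0945 in Control.

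Cfi encodes factor I, the protease that inactivates the C3 and C4 fragments, and had the largest change of the 9. Cfi (ENSMUSG00000058952) was at 4.88, 3.72, 3.11, 3.42 and 2.97 FPKM in WMW-H, 9.54, 9.20, 8.90, 7.90 and 8.73 FPKM in AOM/DSS, and 0.023, 0.083, 0.054, 0 and 0.077 FPKM in Control. Every AOM/DSS library was above every WMW-H library, and all of these were far above Control. At the depths found, the Control values correspond to 1, 3, 2, 0 and 3 fragments, 9 in all, with a 95% exact Poisson interval of 4.12 to 17.1 that covers counting error only. The mean per depth was 191-fold higher in AOM/DSS than in Control (exact interval 100.5 to 419.1, counting error only) and 79.4-fold higher in WMW-H than in Control (41.6 to 174). On the log2(FPKM + 1) scale Cfi rose by 3.23 in AOM/DSS (SE 0.09, limma adjusted p = 2.59e-15) and by 2.13 in WMW-H against Control (adjusted p = 2.43e-12). It fell by 1.11 in WMW-H against AOM/DSS (SE 0.09, adjusted p = 9.24e-09), to 0.409 times the AOM/DSS mean. Cfi passed the filter through the 10 AOM/DSS and WMW-H libraries alone, so its rise against Control was partly fixed by the filter, whereas the other 8 genes passed in all 15. The part of the gland transcripts, which were also highest in AOM/DSS, in the Cfi values was not tested.

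Cd55 encodes decay-accelerating factor, a membrane protein that shields host cells from complement. Cd55 (ENSMUSG00000026399) was at 21.5, 22.3, 24.96, 22.4 and 22.1 FPKM in WMW-H, 17.0, 17.6, 18.0, 15.9 and 16.6 FPKM in AOM/DSS, and 17.1, 15.9, 15.6, 15.3 and 16.9 FPKM in Control. WMW-H lay above both other groups, which overlapped. Cd55 rose by 0.39 in WMW-H against AOM/DSS (SE 0.05, limma adjusted p = 1.04e-06) and by 0.46 against Control (adjusted p = 1.87e-07), or 1.33-fold and 1.40-fold between the means. In AOM/DSS against Control the change was 0.07 (SE 0.05, adjusted p = 0.173). It passed at 0.12 with equal library totals (adjusted p = 0.0257), and was -0.04 (adjusted p = 0.477) with size factors and -0.08 (adjusted p = 0.186) after quantile normalization. Its copy Cd55b, which shares 13.3% of the 50-base stretches of Cd55, was at 0.0276 ± 0.0414 FPKM in WMW-H, 0.0272 ± 0.0391 in AOM/DSS and 0.0438 ± 0.0479 in Control.

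**Figure D3:**
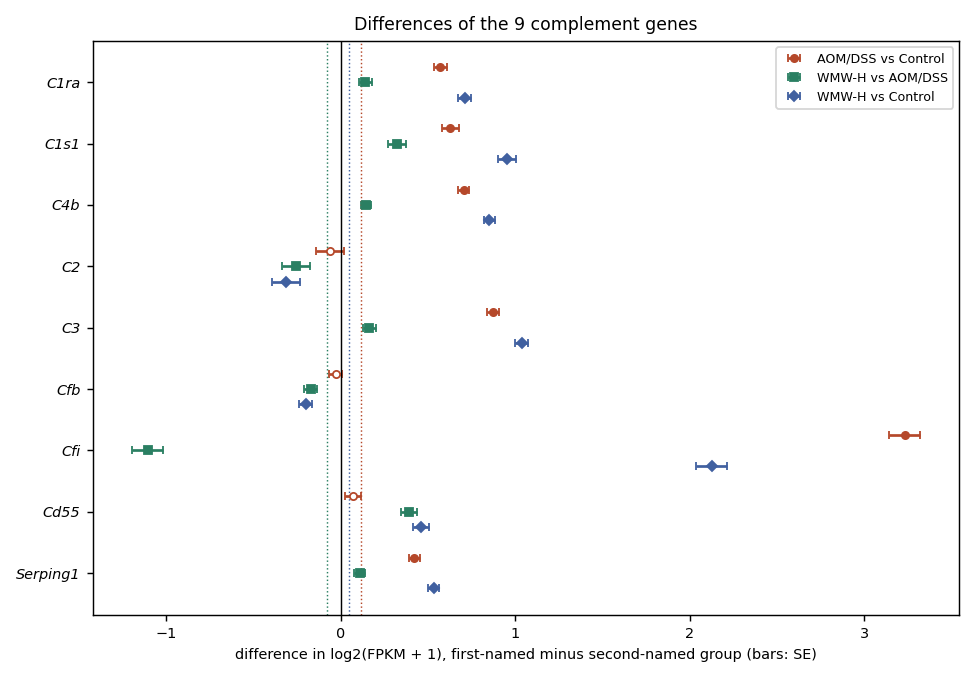
Differences in log2(FPKM + 1) (horizontal axis) of the 9 complement genes, first-named minus second-named group, with SE bars; circles are AOM/DSS against Control, squares WMW-H against AOM/DSS and diamonds WMW-H against Control, filled where the adjusted p is under 0.05. Dotted lines are the medians of all genes tested, at 0.12, -0.07 and 0.05; Cfi lies farthest out, and C2 and Cfb lie left of 0.

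Separation of the groups gives a further view. In AOM/DSS against Control, 6 of the 9 genes had no overlap between groups, all of them higher, as had 52.9% of all genes tested (36.9% higher and 16% lower). In WMW-H against AOM/DSS 8 of 9 had none, 6 higher and 2 lower, against 51.2% of all genes (18.8% higher and 32.3% lower). In WMW-H against Control 8 of 9 had none, 7 higher and 1 lower, against 42.3% of all genes (25.3% higher and 17% lower). C2 was the gene that overlapped in each, and the separation of Cfi from Control was partly fixed by the filter. Relative to the median of all genes, the 6 rises in AOM/DSS against Control were between 0.31 for Serping1 and 3.12 for Cfi. The values for C2, Cfb and Cd55 relative to that median were -0.18, -0.15 and -0.04.

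Nearest in pattern over the 3 group means were genes of many kinds. By distance between the pairs of log2 changes against Control, Ctsl and Osr1 were nearest to C1ra (0.0098 and 0.017), Ly6g2 and Slit3 to C1s1 (0.024 and 0.033), and Fstl1 and Fzd6 to C4b (0.015 and 0.029). Lbp and Ctsk were nearest to C3 (0.076 and 0.077), and Bnip2 and Sh3kbp1 to Serping1 (0.014 and 0.015). Apeh and Slc25a25 were nearest to C2, Top1 and Osbpl5 to Cfb, and Ate1 and Mettl5 to Cd55, all within 0.013. Cfi had no close neighbour: the nearest, Pdgfrl and Mmp10, were 0.24 and 0.25 away. Distances are in log2(FPKM + 1), which understates changes of low genes. Osr1, at 2.01 FPKM in WMW-H, 1.65 in AOM/DSS and 0.795 in Control, changed by larger folds than C1ra.

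The rest of the complement system was followed in a list of 50 other genes, of which 49 were in the table and 26 passed the filter. Of these 26, 17 rose and 4 fell in AOM/DSS against Control, 8 were higher and 12 lower in WMW-H than in AOM/DSS, and 19 were higher and 2 lower in WMW-H than in Control. The balance in WMW-H against AOM/DSS depended on scaling, with 12 higher and 11 lower both with size factors and after quantile normalization, and 5 were higher without WMW-H replicate 4. Among all genes tested, falls as fitted likewise outnumbered rises between WMW-H and AOM/DSS, at 40.9% and 25.9%. Rises outnumbered falls for AOM/DSS over Control (45.5% and 20.6%) and for WMW-H over Control (35.4% and 24.1%). The direction of the balance was therefore that of all genes each time. The median changes of the 26 as fitted were 0.49, 0.08 and 0.45, beside 0.12, -0.07 and 0.05 for all genes. The 23 that did not pass reached at most 1.502 FPKM in any library. They include Masp2, Mbl1, Mbl2 and Fcnb of the lectin pathway, and C5 (Hc), C8a, C8b, C8g and C9 of the terminal pathway. Of those tested, C1rb and Colec10 passed through 5 libraries each, C1rl and C6 through 8 each and C7 through 14. C1rb passed through AOM/DSS libraries alone, and Colec10 and C6 through no AOM/DSS library, C6 being at 0.728 to 0.975 FPKM there. The calls of C1rb and Colec10 in both comparisons with AOM/DSS enter the counts above and were partly fixed by the filter. So was the rise of C6 in WMW-H against AOM/DSS (0.25, limma adjusted p = 0.0134). C1rl passed in every WMW-H library, while its Control median was 0.816 FPKM, so its rise in WMW-H against Control was also partly fixed.

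Upstream of C1r and C1s, the 3 chains of C1q, which binds antibody and dying cells and is made mainly by macrophages, rose in AOM/DSS and fell in WMW-H against AOM/DSS, the direction in which C1ra and C1s1 did not go. C1qa was at 88.7 ± 5.32 FPKM in WMW-H, 114 ± 1.74 in AOM/DSS and 64.0 ± 1.91 in Control (SD, n = 5). It rose by 0.82 in AOM/DSS (limma adjusted p = 1.25e-12) and fell by 0.36 in WMW-H against AOM/DSS (adjusted p = 1.06e-07). C1qb fell by 0.23 in WMW-H against AOM/DSS (adjusted p = 0.000132). The fall of C1qc, by 0.13 (adjusted p = 0.0128), was lost with size factors (adjusted p = 0.242) and after quantile normalization (0.105). Macrophage markers summed to 113 to 124 FPKM in WMW-H, 128 to 146 FPKM in AOM/DSS and 83.1 to 88.7 FPKM in Control. In WMW-H against AOM/DSS 2 of these 10 markers rose and 2 fell, so the sums do not speak for each gene: Cd14 was at 19.6 ± 1.62 FPKM in WMW-H and 33.0 ± 1.67 in AOM/DSS, and Mrc1 at 7.95 ± 0.334 in WMW-H and 6.13 ± 0.175 in AOM/DSS. Their part in the C1q values was not tested. C1rl, a C1r-like protease, was at 1.32 ± 0.183 FPKM in WMW-H, 1.079 ± 0.214 in AOM/DSS and 0.831 ± 0.123 in Control. It rose in WMW-H against Control (0.34, limma adjusted p = 0.00154), a rise partly fixed by the filter, which C1rl passed in every WMW-H library.

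In the lectin pathway 3 genes were tested. Fcna, a ficolin that binds sugars, was at 8.12 ± 0.623 FPKM in WMW-H, 7.05 ± 0.551 in AOM/DSS and 5.37 ± 0.942 in Control. Masp1, a protease of this pathway, was at 2.25 ± 0.305 FPKM in WMW-H, 2.05 ± 0.325 in AOM/DSS and 1.23 ± 0.0748 in Control. Both rose against Control in AOM/DSS, by 0.35 (limma adjusted p = 0.00255) and 0.45 (adjusted p = 0.000102), the call for Fcna being lost after quantile normalization (adjusted p = 0.0827). Colec10, a collectin, passed the filter through 2 Control and 3 WMW-H libraries and no AOM/DSS library, so its changes in both comparisons with AOM/DSS were partly fixed by the filter. It was at 1.05 ± 0.18 FPKM in WMW-H, 0.29 ± 0.053 in AOM/DSS and 0.903 ± 0.158 in Control. It fell by 0.56 in AOM/DSS (adjusted p = 6.18e-06) and rose by 0.66 in WMW-H against AOM/DSS (adjusted p = 8.51e-07).

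Factor D (Cfd), the protease that activates factor B, fell in every comparison. Cfd was at 52.0, 48.3, 37.7, 44.4 and 46.4 FPKM in WMW-H, 77.6, 80.6, 81.2, 76.7 and 78.4 FPKM in AOM/DSS, and 132, 145, 147, 142 and 136 FPKM in Control. The groups were far apart. It fell by 0.82 in AOM/DSS against Control (limma adjusted p = 2.4e-09) and by 0.78 in WMW-H against AOM/DSS (adjusted p = 6.46e-09). Cfd is also called adipsin and is a marker of fat cells. The other 8 adipocyte markers summed to 85.0 to 90.2 FPKM in WMW-H, 126 to 136 FPKM in AOM/DSS and 162 to 176 FPKM in Control; 7 of 8 fell in AOM/DSS against Control and 8 of 8 in WMW-H against AOM/DSS. Their part in the fall of Cfd was not tested. Properdin (Cfp), which stabilizes the alternative pathway enzyme, was at 9.68 ± 0.541 FPKM in WMW-H, 14.2 ± 0.391 in AOM/DSS and 6.88 ± 0.391 in Control, rising by 0.95 in AOM/DSS (adjusted p = 7.39e-12) and falling by 0.51 in WMW-H against AOM/DSS (adjusted p = 3.97e-08).

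**Figure D4:**
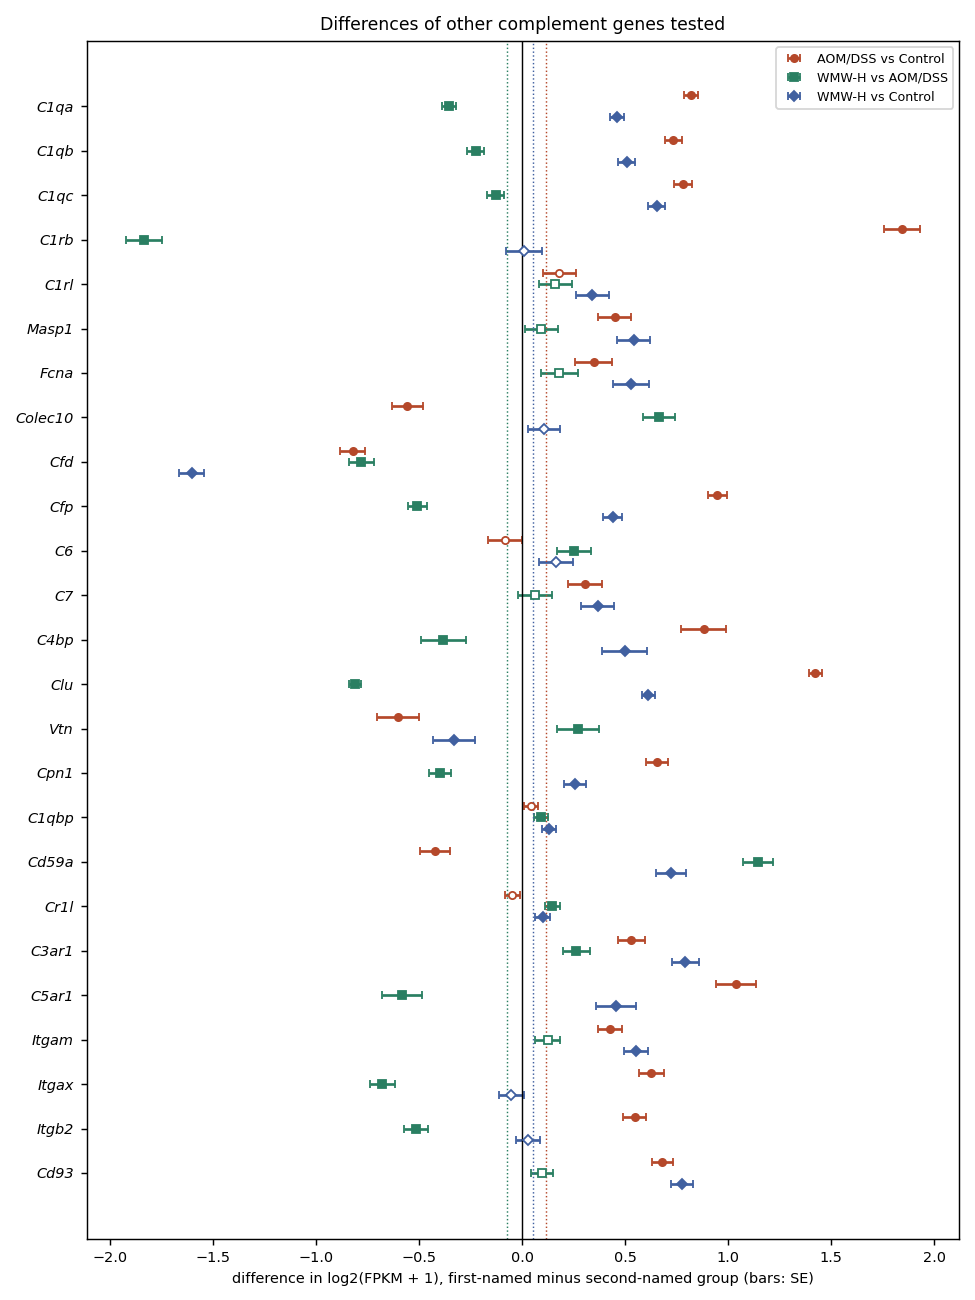
Differences in log2(FPKM + 1) (horizontal axis) of other complement genes tested, first-named minus second-named group, with SE bars; circles are AOM/DSS against Control, squares WMW-H against AOM/DSS and diamonds WMW-H against Control, filled where the adjusted p is under 0.05, and dotted lines are the medians of all genes. C1qa, C1qb, Cfp, Clu and C5ar1 lie right of 0 in AOM/DSS and left of 0 in WMW-H against AOM/DSS, Cd59a and Colec10 do the opposite, and Cfd lies left of 0 throughout.

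Both membrane regulators tested beside Cd55 rose in WMW-H against AOM/DSS, and of 6 fluid-phase regulators 3 rose and 3 fell, though the rises of C1qbp and Vtn were lost in 8 and 2 alternatives. Cd59a, which blocks the final pore, was at 5.55, 5.53, 6.50, 6.01 and 5.77 FPKM in WMW-H, 2.02, 2.77, 1.88, 1.81 and 2.13 FPKM in AOM/DSS, and 3.08, 3.39, 3.095, 3.35 and 2.92 FPKM in Control. It fell by 0.42 in AOM/DSS against Control (limma adjusted p = 8.3e-05) and rose by 1.15 in WMW-H against AOM/DSS (adjusted p = 6.26e-10). Cr1l, known in mouse as Crry, was at 52.8 ± 1.88 FPKM in WMW-H, 47.6 ± 1.36 in AOM/DSS and 49.3 ± 2.47 in Control, and rose by 0.15 in WMW-H against AOM/DSS (adjusted p = 0.00162). Its rise of 0.10 against Control (adjusted p = 0.0245) was lost in 8 alternatives. Clu, whose product clusterin binds the terminal complex, fell by 0.81 (adjusted p = 5.83e-13) and Cpn1, a subunit of the enzyme that inactivates C3a and C5a, by 0.40 (adjusted p = 4.49e-06). C1qbp, whose product can bind C1q but sits mostly in mitochondria, was at 76.8 ± 4.07 FPKM in WMW-H, 72.1 ± 1.29 in AOM/DSS and 70.0 ± 2.26 in Control. Its rise of 0.09 in WMW-H against AOM/DSS (adjusted p = 0.0276) was lost with equal library totals (adjusted p = 0.367). Vtn (vitronectin), named with its values already seen, stood at 2.15 ± 0.526 FPKM in WMW-H, 1.60 ± 0.277 in AOM/DSS and 2.93 ± 0.289 in Control. Its rise of 0.27 in WMW-H against AOM/DSS (adjusted p = 0.0257) was lost without WMW-H replicate 4 (adjusted p = 0.0754) and without AOM/DSS replicate 5 (0.0785).

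The receptors for the small fragments of C3 and C5 parted. C5ar1 was at 5.26 ± 0.766 FPKM in WMW-H, 8.39 ± 1.26 in AOM/DSS and 3.55 ± 0.363 in Control, rising by 1.04 in AOM/DSS (limma adjusted p = 6.4e-08) and falling by 0.58 in WMW-H against AOM/DSS (adjusted p = 5.6e-05). C3ar1, named with its values already seen, stood at 3.91 ± 0.322 FPKM in WMW-H, 3.09 ± 0.35 in AOM/DSS and 1.83 ± 0.118 in Control, and rose in WMW-H against AOM/DSS by 0.26 (adjusted p = 0.00204). Itgb2 and Itgax, integrin chains of complement receptors on leukocytes, fell in WMW-H against AOM/DSS by 0.52 (adjusted p = 5.66e-07) and 0.68 (adjusted p = 4.86e-08). Itgam was at 5.83 ± 0.39 FPKM in WMW-H, 5.27 ± 0.381 in AOM/DSS and 3.66 ± 0.272 in Control. Of the terminal components only C6 and C7, parts of the membrane pore, were tested. C7 was at 1.86 ± 0.274 FPKM in WMW-H, 1.73 ± 0.0792 in AOM/DSS and 1.22 ± 0.244 in Control. C6 was at 1.254 ± 0.182 FPKM in WMW-H, 0.892 ± 0.0982 in AOM/DSS and 1.02 ± 0.234 in Control.

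Cell markers moved with the groups as well. Epithelial markers were present throughout, with 10 genes summing to 9085 to 9494 FPKM in WMW-H, 9526 to 9605 FPKM in AOM/DSS and 10433 to 10557 FPKM in Control. These genes did not move as 1: 4 rose and 5 fell in AOM/DSS against Control. In WMW-H 4 were higher and 5 lower than in AOM/DSS, and 2 higher and 8 lower than in Control. Epcam was at 878 ± 33.8 FPKM in WMW-H, 825 ± 9.37 in AOM/DSS and 733 ± 4.4 in Control, and Krt8 at 2109 ± 54.9, 2563 ± 18.8 and 2709 ± 14.2 in the same order. Markers of other cells were present too, against the cell type label. Fibroblast markers summed to 491 to 526 FPKM in WMW-H, 453 to 473 FPKM in AOM/DSS and 294 to 305 FPKM in Control. Of these 10 markers, 8 rose and 2 fell in AOM/DSS against Control, 4 were higher and 5 lower in WMW-H than in AOM/DSS, and 9 were higher and 0 lower in WMW-H than in Control. Dcn, at 114 ± 3.14 FPKM in WMW-H, 59.3 ± 2.32 in AOM/DSS and 63.4 ± 2.09 in Control, and Col1a1, at 42.8 ± 2.35 FPKM in WMW-H, 50.1 ± 1.52 in AOM/DSS and 19.3 ± 0.463 in Control, show how these markers differ. Their part in the rises of C1ra, C1s1, C4b, C3 and Serping1 was not tested. Liver markers summed to 42.6 to 58.0 FPKM in WMW-H, 59.3 to 64.4 FPKM in AOM/DSS and 49.6 to 55.8 FPKM in Control, with the fibrinogen chains Fga, Fgb and Fgg under 0.8 FPKM in every library. Albumin was at 9.61 ± 3.33 FPKM in WMW-H, 6.29 ± 0.538 in AOM/DSS and 1.07 ± 1.64 in Control. Pancreas acinar genes made 1.86% to 1.97% of the FPKM total in WMW-H, 1.11% to 1.13% in AOM/DSS and 4.90% to 5.00% in Control. The sums of neutrophil and endothelial markers were highest in AOM/DSS, at 52.0 to 63.7 and 105 to 108 FPKM. That of lymphocyte markers was highest in Control, at 540 to 561 FPKM. Of the 10 endothelial markers, 3 were higher and 5 lower in WMW-H than in AOM/DSS. Tek was at 4.08 ± 0.49 FPKM in WMW-H and 2.87 ± 0.222 in AOM/DSS, and Vwf at 7.28 ± 0.391 in WMW-H and 10.9 ± 0.198 in AOM/DSS.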

How the data were processed

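RNA was measured in 15 libraries of mouse colon, 5 per group. Per the labels' protocols, RNA was enriched with oligo(dT) beads before Illumina sequencing. Per the submitters' processing notes, the tools were RSEM, StringTie 1.3.1, HISAT2, Bowtie2 2.2.8 and fastp 0.18.0, named with no role or order. The build and gene models are not given in the sources used here. The authors deposited FPKM values, 1 column per library, with totals of 507895 to 535410.

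FPKM values were transformed to log2(FPKM + 1). A gene entered the fit if 5 or more libraries had 1 FPKM or more. These genes were fitted with limma 3.58.1 (R 4.3.3), with a mean per group and a trended prior, and Benjamini-Hochberg adjustment over the 12917 genes. The script was checked on simulated data. The members, the lists of other complement genes and cell markers, and the tests were chosen with earlier results of these data known. Named genes were the 9 members, near copies, up to 4 tested genes per role of the wider list by mean FPKM, and the 2 tested genes nearest in pattern to each member. Some genes of the wider list enter its counts but are not reported here.

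Depth was found by scanning for the value at which low FPKM of 3328 genes with 1 transcript in GENCODE M21 become whole fragments; of 7140 such values, 90.4% lay no more than 0.1 from a whole fragment, where 20% would at an unrelated depth. This gave 16200000 to 21000000 fragments. Counting intervals cover counting error only.

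Alternatives were the pseudocount, the filter, the scaling, the libraries fitted, the replicate number and leaving out each library. Promoter sequences are from RefSeq (GRCm38.p6). C4a, with no row under that symbol, was not analysed here.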

Additional observations from a re-analysis of the deposited data

Results flagged for a closer look

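In 8 of 105 sets of 5 libraries, for the 35 complement genes tested in 3 groups, a library stood apart from the others by more than 0.71 of the range; chance gives about 1 in 20 sets. In WMW-H, replicate 3 was high for C3, at 87.1 FPKM where the next was 77.0 FPKM, and for Cd55, at 24.96 FPKM where the next was 22.4 FPKM. The counts of rises and falls among the 9 genes were equal without this library. In AOM/DSS, replicate 4 was high for Cfb, at 45.8 FPKM against 44.0 FPKM for the next, and low for Clu, at 152 FPKM against 159 FPKM for the next. C1rl stood out in AOM/DSS replicate 3, at 1.46 FPKM, and Vtn in WMW-H replicate 4, at 3.06 FPKM. In Control, replicate 2 was high for Cd93, at 2.96 FPKM, and was the only library of its group with C1rb above 0, at 0.03 FPKM.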

How the results depend on the processing

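Of the 9 genes, C1ra, C1s1, C4b, C3 and Cfi kept their direction and call in each comparison under all 24 alternatives. The rises of Cfi against Control were partly fixed by the filter. Calls of C2, Cfb, Cd55 and Serping1 changed as given beside their values, and signs turned only for changes not called: Cfb at 0.021 with equal library totals, and Cd55 at -0.042 with size factors and -0.076 after quantile normalization, all in AOM/DSS against Control. In that comparison 0 genes fell as fitted, 1 with size factors (Cfb) and 2 after quantile normalization (C2 and Cfb). With at least 5 FPKM in 5 libraries C2 was no longer tested, so 1 gene fell in WMW-H against Control. Under that filter 2 other complement genes fell in AOM/DSS against Control, 3 rose in WMW-H against AOM/DSS and 1 fell in WMW-H against Control, since fewer were tested. Leaving out each library in turn gave 6 rises in AOM/DSS against Control, 6 rises and 3 falls in WMW-H against AOM/DSS and 7 rises and 2 falls in WMW-H against Control among the 9 genes each time. For the other complement genes it gave 16 to 18 rises and 3 to 4 falls in AOM/DSS against Control, 5 to 9 rises and 11 to 12 falls in WMW-H against AOM/DSS, with 5 rises without WMW-H replicate 4, and 18 to 19 rises and 2 falls in WMW-H against Control; the cause was not tested. With size factors and after quantile normalization 12 rose and 11 fell in WMW-H against AOM/DSS. The share of all calls that were higher in AOM/DSS against Control was 68.9% as fitted, 74.3% with equal totals, 51.4% with size factors and 47.5% after quantile normalization, and in WMW-H against AOM/DSS 38.8%, 32.6%, 47.5% and 49.6%. Libraries with the same replicate number did not deviate together, with correlations from -0.047 to 0.030, and 1 of 15 correlated best with its own number; with the replicate block, 6 of the 9 genes rose and 0 fell in AOM/DSS against Control, and no call among the 9 changed. The scaling without pancreas and gland genes was chosen after seeing the data.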
